A study of Mus musculus with 10 samples.

Results

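Transcripts of 10 genes of the NRF2 antioxidant and xenobiotic response were followed in macrophages sorted from mouse mammary tumours. The genes were Nfe2l2, which encodes NRF2 itself, and Ephx1, Nqo1, Gstm1, Gclm, Gsr, Txnrd1, Srxn1, Prdx1 and Hmox1, taken by symbol from the 46957 loci of the expression tables. The set was assembled because the Ephx1 level was higher in JHU083 samples of these data, so the Ephx1 difference is given as a description without a test. The other 9 were taken for their known place in the pathway. Their adjusted p-values come from the same comparison of treatments and are not independent support for a direction of the set. All samples came from BALB/cJ mice in which 100000 cells of 4T1, a mouse breast carcinoma line, had been placed in the mammary fat pad. In 5 samples the mice were given PBS as vehicle and in 5 they were given JHU083, a pro-drug of the glutamine antagonist 6-diazo-5-oxo-L-norleucine, at 1 mg/kg on days 7 to 13, with tumours taken on day 14. Viable CD45+ CD11b+ F4/80+ cells that were CD8-, Ly6C- and Ly6G- were sorted for poly(A) RNA sequencing. The labels give no age, and they do not state whether each sample is a separate animal, so p-values measure the spread between these samples.

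NRF2 is a transcription factor that the adaptor KEAP1 holds in the cytoplasm and directs to ubiquitination and degradation. Oxidants and electrophiles modify cysteines of KEAP1, NRF2 then accumulates, pairs with a small MAF protein and binds antioxidant response elements, while BACH1 competes for the same sites and represses them. The targets make glutathione (Gclm, Gclc), reduce it and thioredoxin (Gsr, Txnrd1) and remove peroxides (Prdx1, Srxn1). They also conjugate (Gstm1), hydrolyse (Ephx1) or reduce (Nqo1) reactive foreign compounds and degrade heme (Hmox1). Glutathione contains glutamate, which cells obtain largely from glutamine, and macrophages produce oxidants through the phagocyte NADPH oxidase.

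Promoter windows from 250 bases before to 50 bases after the RefSeq start (GRCm38.p6) were searched on both strands for TGACNNNGC, the core of the antioxidant response element. Windows were found for 8 of the 10 genes, and 5 of these 8 genes (62.5%) held a match, namely Nfe2l2, Gclm, Txnrd1, Srxn1 and Prdx1. Of all 27025 genes with a window, 14.0% held one, as did 22 of 132 further pathway genes (16.7%). The Ephx1 and Gstm1 windows are shown because these genes had the largest differences between treatments, and those of Gclm and Prdx1 because each held the motif while only Gclm passed the test described below. Capitals mark the match, and each sequence is written 5′ to 3′ on the strand of its gene. The windows lie at chr1:181017520-181017819 (minus strand) for Ephx1, chr3:108017924-108018223 (minus strand) for Gstm1, chr3:122245307-122245606 (plus strand) for Gclm and chr4:116685349-116685648 (plus strand) for Prdx1.
Ephx1: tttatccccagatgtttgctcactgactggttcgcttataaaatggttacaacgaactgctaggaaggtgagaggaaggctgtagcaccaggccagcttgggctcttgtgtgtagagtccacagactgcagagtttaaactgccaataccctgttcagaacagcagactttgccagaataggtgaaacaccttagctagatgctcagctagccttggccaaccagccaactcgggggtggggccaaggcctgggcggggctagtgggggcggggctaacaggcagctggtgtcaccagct
Gstm1: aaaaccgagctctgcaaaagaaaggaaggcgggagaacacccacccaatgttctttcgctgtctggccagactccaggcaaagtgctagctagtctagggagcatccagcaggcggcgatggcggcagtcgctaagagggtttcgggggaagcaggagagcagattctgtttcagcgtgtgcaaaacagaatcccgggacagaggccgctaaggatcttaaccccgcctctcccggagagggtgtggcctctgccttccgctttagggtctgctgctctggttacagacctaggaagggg
Gclm: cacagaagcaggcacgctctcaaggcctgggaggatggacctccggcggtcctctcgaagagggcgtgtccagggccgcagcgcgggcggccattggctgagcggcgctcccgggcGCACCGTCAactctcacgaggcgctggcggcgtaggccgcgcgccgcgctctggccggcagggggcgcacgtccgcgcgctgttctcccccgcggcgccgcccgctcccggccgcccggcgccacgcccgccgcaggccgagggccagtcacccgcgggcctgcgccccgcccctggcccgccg
Prdx1: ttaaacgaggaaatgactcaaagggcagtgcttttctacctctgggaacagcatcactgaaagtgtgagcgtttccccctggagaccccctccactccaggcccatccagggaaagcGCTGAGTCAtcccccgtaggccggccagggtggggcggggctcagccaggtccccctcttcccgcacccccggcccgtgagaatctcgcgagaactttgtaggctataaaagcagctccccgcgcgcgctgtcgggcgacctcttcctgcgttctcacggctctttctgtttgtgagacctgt
The Prdx1 match begins 133 bases before the start site and reads TGACTCAGC on the strand opposite to the gene. It overlaps an AP-1 site, TGANTCA, which 8.97% of all genes held in this window and which also occurs in the Srxn1 window. The Gclm match begins 134 bases before the start site, reads TGACGGTGC on the opposite strand and overlaps no AP-1 site. A second start is listed for Gstm1, whose window held no match either. A match in these letters describes the sequence and was not tied to binding.

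Libraries held 11147870 to 14575932 fragments in vehicle and 13638381 to 15740700 in JHU083 samples. At these depths 3 fragments correspond to 0.19 to 0.27 CPM (fragment counts scaled to a common library size), taken as the lowest level that can be told from 0, for counting error only. All 10 macrophage markers were detected, and Adgre1, Csf1r, Mertk, Mrc1 and Apoe rose while Cd68, C1qa, C1qb, C1qc and Fcgr1 were not called. Their summed level was 32144 to 41594 CPM in vehicle and 50420 to 69578 CPM in JHU083 samples, of which Apoe alone held 18060 to 24575 and 32936 to 49007 CPM. Without Apoe the sums were 13862 to 17019 and 16888 to 20571 CPM. Transcripts of 4T1 epithelium were also present, and all 12 markers fell, from a sum of 338 to 741 CPM in vehicle to 117 to 244 CPM in JHU083 samples. Of 8 eosinophil markers, 4 could be tested and 2 rose, Ear2 and Siglecf. The sum of all 8 was 7.67 to 13.7 CPM in vehicle and 20.8 to 41.5 CPM in JHU083 samples, with Ear2 at 2.24 to 4.46 and 9.75 to 24.0 CPM, and Epx, a defining marker, near 0. Markers called lower were 4 of 6 tested for fibroblasts, 2 of 4 for neutrophils (S100a8 and S100a9), 1 of 4 for endothelium (Pecam1) and 1 of 4 for mast cells (Mcpt4). The neutrophil genes Cxcr2 and Retnlg were not called (0.60 and 0.45, log2), and the neutrophil sum was 36.7 to 48.8 CPM in vehicle and 13.6 to 66.2 CPM in JHU083 samples, highest in JHU083 replicate 4. Chil3 of the monocyte list, Cd4 of the T and NK cell list, Cd79b of the B cell list and Cpa3 of the mast cell list were called higher, and none of the dendritic cell list was called. In bulk RNA, fewer cells of a type and less RNA per cell cannot be told apart. The part of these other cells in the results below was not tested. In 5 samples (3 vehicle, 2 JHU083) the ribosomal RNA loci Rn18s-rs5 and Gm42418 have the value 0, while in the other 5 samples they took 2.87% to 5.59% of all fragments. The samples at 0 were vehicle replicates 2, 4 and 5 and JHU083 replicates 1 and 3. Differences of Ephx1, Gstm1, Gclm, Nfe2l2 and Hmox1 are therefore also given within each of these 2 sets of 5 samples. Of 37 other called genes whose values were recomputed under each alternative, 28 lost the call in the set with these loci at 0 and 10 in the other set, and Gclc, Cat, Idh1, Cybb, Gsto1, Ggact, Keap1 and Prdx6 lost it in both.

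Of 12501 loci tested, 36.7% passed an edgeR adjusted p of 0.05 in either direction, 18.4% of the loci being higher in JHU083 and 18.3% lower. Scaling to library size only, without TMM factors, moved the higher share of all calls from 50.03% to 33.2%, and the median log2 difference of all loci from 0.01 to -0.07. Apart from Ephx1, whose difference chose the set, 8 of the other 9 genes were abundant enough to test. Of these 8, Gstm1, Gclm, Nfe2l2 and Hmox1 were higher in JHU083, and the median log2 difference over the 8 was 0.30. With library-size scaling 2 of the 8 were higher, Gclm and Hmox1 were no longer called and Gsr was lower. By edgeR with TMM, 0 of the 8 were lower, and 1 of them, Gsr, was lower at an unadjusted p under 0.05. DESeq2, which tested Nqo1 as well, and limma-voom also called 0 lower, with 1 lower at an unadjusted p under 0.05 in each. In 3 of the 8 genes, namely Gstm1, Gclm and Nfe2l2, every JHU083 sample lay above every vehicle sample, a pattern found for 11.2% of all tested loci. In none of the 8 did every JHU083 sample lie below every vehicle sample, a pattern of 11.1% of all tested loci.

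**Figure D1:**
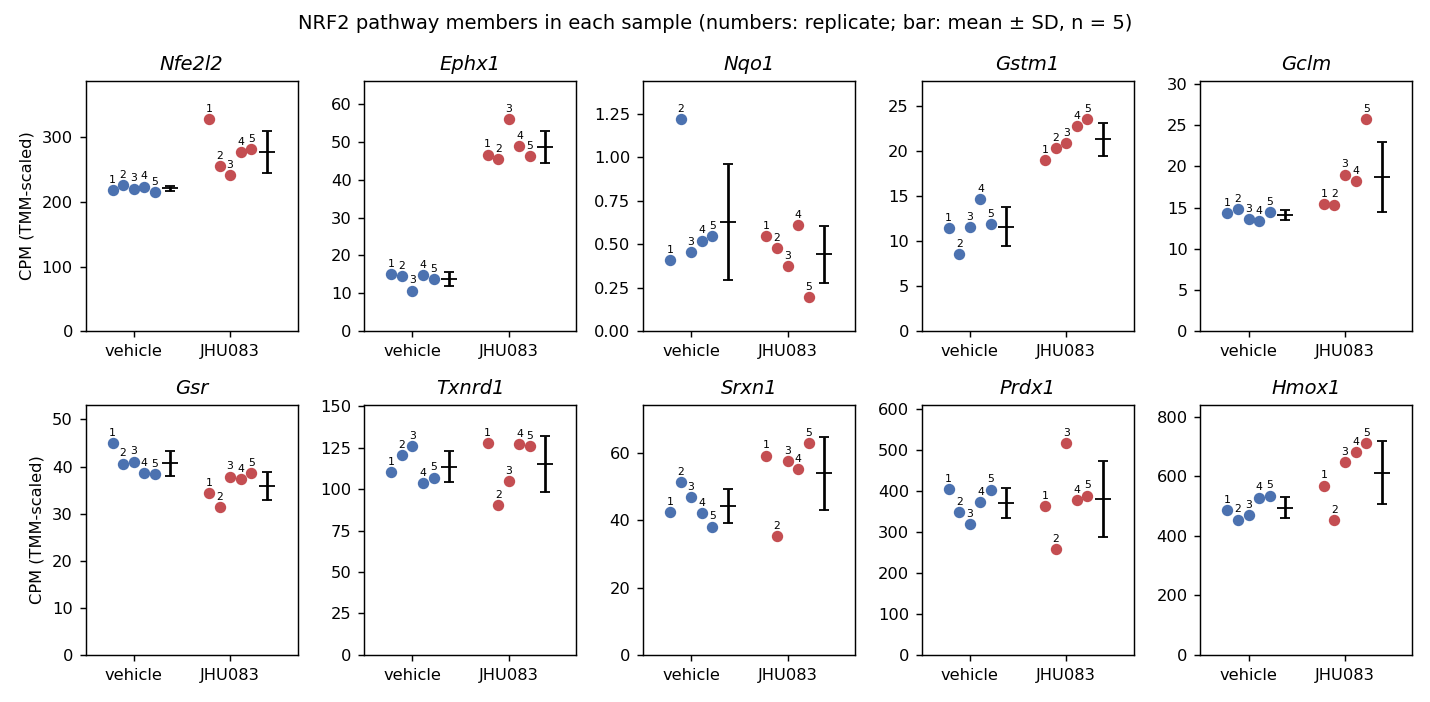
CPM of each of the 10 genes in every sample, with vehicle in blue, JHU083 in red, the replicate number above each point and the mean with its SD (n = 5) beside each group. Ephx1 and Gstm1 lie wholly above vehicle in JHU083 samples, Nqo1 stays near 1 CPM or below, and JHU083 replicate 2 is the lowest of its group in 7 of the 10 panels.

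The regulators were considered first. Nfe2l2 (XLOC_020881, protein coding, chromosome 2, 75675513 to 75704641, minus strand, GRCm38) measured 218, 226, 221, 224 and 216 CPM in vehicle replicates 1 to 5 and 328, 256, 242, 277 and 282 CPM in JHU083 replicates 1 to 5. The vehicle samples were close together and the JHU083 samples all lay above them. Nfe2l2 rose by 0.33 ± 0.08 on the log2 scale (SE, edgeR adjusted p = 0.00551), with 0.36 in the samples with the ribosomal loci at 0 and 0.30 in the others. Neither smaller set passed alone (edgeR adjusted p = 0.141 and 0.0807).

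A wider list of pathway genes was read beside the members, and 27 of its 132 tested loci were higher and 23 lower (37.9% called), with a median log2 difference of -0.02. That share is near the 36.7% of all tested loci, and the counts of each list below are to be read beside the 18.4% higher and 18.3% lower of all tested loci. Alternatives other than leaving out 1 sample gave 9 to 27 pathway loci higher and 2 to 34 lower. For all tested loci these alternatives gave 532 to 2379 higher and 586 to 3141 lower. Of 13 further regulator loci that could be tested, 5 were higher and 2 lower, beside 18.4% and 18.3% of all tested loci. Keap1 measured 72.9 ± 7.13 CPM in the vehicle group against 59.1 ± 7.90 CPM after JHU083 (SD, n = 5). It fell by 0.30 ± 0.10 (log2, SE, edgeR adjusted p = 0.0276), with JHU083 replicate 3 inside the vehicle range. Omitting single samples removed the Keap1 call in 7 of 10 cases (vehicle replicate 1, 4 or 5, or JHU083 replicate 1, 2, 4 or 5), with edgeR adjusted p from 0.0510 to 0.0721 and log2 differences of -0.30 to -0.26. It was also lost on the log2(FPKM + 1) scale (-0.25, limma adjusted p = 0.0776). Bach1 rose from 137 ± 29.9 to 200 ± 34.8 CPM (SD, n = 5), by 0.55 ± 0.15 on the log2 scale (SE, edgeR adjusted p = 0.0117). Among the small MAF partners, Mafk rose by 0.50 ± 0.10 (log2, SE, edgeR adjusted p = 0.00215) without overlap between the groups, and Maff rose by 0.51 ± 0.16 (log2, SE, edgeR adjusted p = 0.0254). The Maff call was lost without vehicle replicate 1 or 5 or JHU083 replicate 1 or 4 (log2 differences 0.40 to 0.47, edgeR adjusted p from 0.0596 to 0.0724), with library-size scaling (0.42, edgeR adjusted p = 0.0621) and on the log2(FPKM + 1) scale (0.48, limma adjusted p = 0.0705). The Mafg difference was 0.01 ± 0.07 (log2, SE, edgeR adjusted p = 0.904), at a locus that also lists Mir6936 and Sirt7, and its sign turned with library-size scaling. Bach2, a relative of Bach1 best known from lymphocytes, rose by 0.79 ± 0.17 (log2, SE, edgeR adjusted p = 0.00289), though not on the scale log2(FPKM + 1), where the difference was 0.24 (limma adjusted p = 0.582). Sqstm1, whose protein p62 binds KEAP1, rose by 0.37 ± 0.09 (log2, SE, edgeR adjusted p = 0.00391). Park7, which encodes the redox-sensitive protein DJ-1, fell by 0.63 ± 0.11 (log2, SE, edgeR adjusted p = 0.000561), with all 5 JHU083 samples below vehicle.

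Ephx1 encodes microsomal epoxide hydrolase, which opens reactive epoxides to diols. Its locus (XLOC_003179, chromosome 1, 180976210 to 181020904, minus strand, GRCm38) also lists Gm36961, a pseudogene on the same strand of which 72 of 132 bases fall within Ephx1 exons. Of the 50-base stretches of Ephx1 transcripts, 1.704% recur in another gene's transcripts, and that gene is Gm36961. Ephx1 measured 15.1, 14.6, 10.7, 14.9 and 13.7 CPM in vehicle replicates 1 to 5 and 46.6, 45.4, 56.0, 48.9 and 46.2 CPM in JHU083 replicates 1 to 5. The lowest JHU083 sample was thus well above the highest vehicle sample. The log2 difference was 1.82 ± 0.10 (SE), or 3.52-fold, and it was 1.84 in each set of 5 samples defined by the ribosomal loci. Leaving out any 1 sample gave 1.74 to 1.85. Per length, the authors' FPKM of Ephx1 had a median of 8.80 in vehicle (6.47 to 9.07) and 28.3 in JHU083 (27.6 to 33.5). The related epoxide hydrolase genes Ephx2, Ephx3 and Ephx4 stayed at or below 12 fragments in every sample and were not tested.

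**Figure D2:**
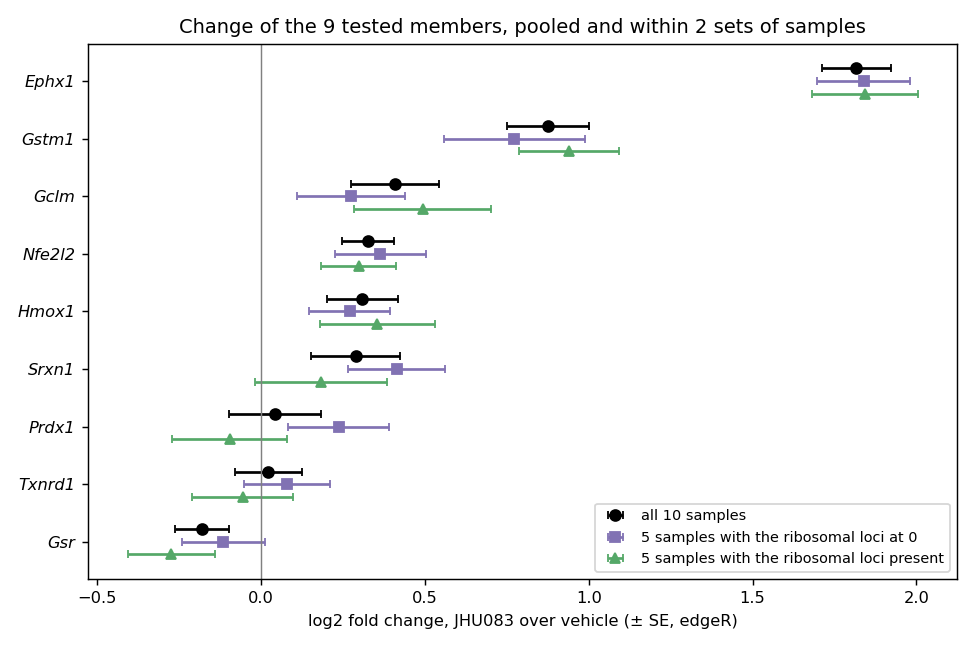
Log2 fold change of JHU083 over vehicle for the 9 tested genes, with SE, in all 10 samples (black), in the 5 samples with Rn18s-rs5 and Gm42418 at 0 (purple) and in the other 5 (green). Ephx1 lies near 1.8 and Gstm1 between 0.77 and 0.94 in all fits shown, while Prdx1 and Txnrd1 change sign between the sets.

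Nqo1 encodes NAD(P)H quinone dehydrogenase, a classical NRF2 target. Its locus (XLOC_040479, chromosome 8, 107388225 to 107403206, minus strand) held 6, 16, 6, 6 and 7 fragments in vehicle and 8, 7, 5, 8 and 3 in JHU083 samples. The levels of 0.20 to 1.22 CPM were near the limit of detection and too low for the main test. With no filter on low counts the log2 difference was -0.51 ± 0.50 (SE, edgeR adjusted p = 0.484), so a difference was not detectable at this depth.

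Of 35 other loci for xenobiotic and carbonyl enzymes and exporters that were tested, 9 were higher and 1 was lower, with a median log2 difference of 0.08 against 0.01 for all tested loci. Sult1a1, a phenol sulfotransferase, rose from 1.44 ± 0.39 to 10.7 ± 2.24 CPM (SD, n = 5), by 2.87 ± 0.21 on the log2 scale (SE, edgeR adjusted p = 1.06e-06). Of 8 tested genes for exporters of drugs and conjugates, a family taken out of this list after its values were seen, 3 rose and 1 fell, beside 18.4% and 18.3% of all tested loci, and Abcc1, Abcc4, Abcb1b and Abcb6 were not called. The 3 that rose were Abcc5, Abcg2 at 0.75 ± 0.11 (log2, SE, edgeR adjusted p = 0.000123) and Abcc3 at 0.50 ± 0.08 (log2, SE, edgeR adjusted p = 0.000331). Aldh9a1, Ptgr2, Cyb5r1, Akr1c13 and Cbr2 made up the rest of the 9. Abcb1a, the locus that was lower, fell by 0.89 ± 0.18 (log2, SE, edgeR adjusted p = 0.00198). The aryl hydrocarbon receptor targets Cyp1a1 and Cyp1b1 stayed at or below 17 fragments in every sample and were not tested.

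Gstm1 encodes a mu-class glutathione S-transferase, which couples glutathione to electrophiles. Its locus (XLOC_024434, chromosome 3, 108012255 to 108017973, minus strand) measured 11.5, 8.61, 11.5, 14.7 and 11.9 CPM in vehicle replicates 1 to 5 and 19.0, 20.4, 20.9, 22.8 and 23.6 CPM in JHU083 replicates 1 to 5. The groups did not overlap. Gstm1 rose by 0.88 ± 0.13 on the log2 scale (SE, edgeR adjusted p = 0.000145), or 1.83-fold, with 0.77 and 0.94 in the sets with the ribosomal loci at 0 and present (edgeR adjusted p = 0.0565 and 0.00195). Of its 50-base transcript stretches, 19.9% recur in 5 other genes, led by Gstm2-ps1, so fragments could be split among them and its count is uncertain to that extent.

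Of 14 further transferase loci tested, 2 were higher and 3 lower, with a median log2 difference of -0.15. Mgst1, a membrane-bound glutathione transferase, rose from 19.3 ± 3.48 to 60.4 ± 11.2 CPM (SD, n = 5), by 1.65 ± 0.15 on the log2 scale (SE, edgeR adjusted p = 4.09e-06). Gsto1, of the omega class, rose by 0.38 ± 0.10 (log2, SE, edgeR adjusted p = 0.00814). Gstp1, of the pi class, fell from 65.2 ± 6.68 to 46.7 ± 7.94 CPM (SD, n = 5, edgeR adjusted p = 0.00401). Gstcd fell by 0.63 ± 0.12 (log2, SE, edgeR adjusted p = 0.00151), and Gstt1, with group means of 1.80 and 0.52 CPM, fell by 1.77 ± 0.31 (log2, SE, edgeR adjusted p = 0.000581).

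**Figure D3:**
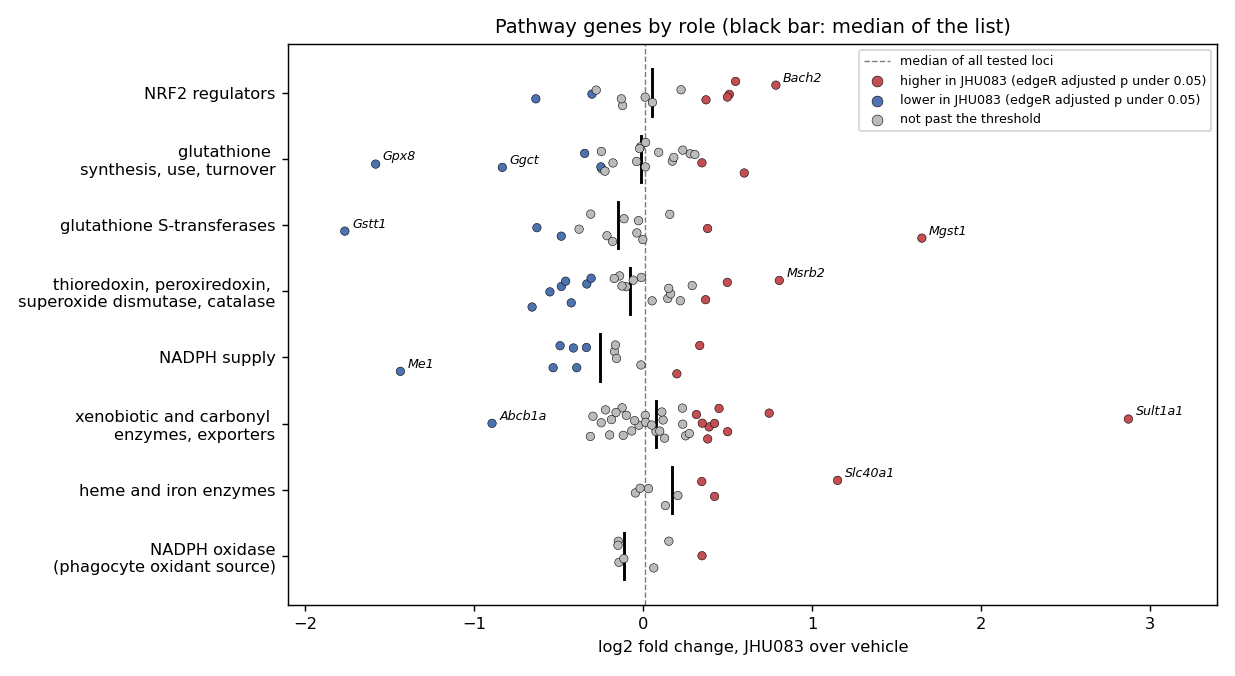
Log2 fold change of JHU083 over vehicle for the 132 tested loci of the wider pathway, 1 point per locus, by role, with called loci in red (higher) or blue (lower), the median of each list as a black bar and the median of all tested loci as a dashed line. Red points reach furthest for Sult1a1, Mgst1 and Slc40a1, and the NADPH supply list has the lowest median, at -0.25.

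Gclm encodes the modifier subunit of glutamate-cysteine ligase, the first step of glutathione synthesis. Its locus (XLOC_023107, chromosome 3, 122245557 to 122270732, plus strand) also lists the pseudogene Gm6061, of which 244 of 492 bases fall within Gclm exons. Gclm measured 14.3, 14.9, 13.6, 13.4 and 14.5 CPM in vehicle replicates 1 to 5 and 15.4, 15.4, 19.0, 18.2 and 25.7 CPM in JHU083 replicates 1 to 5. All JHU083 samples were above vehicle, with replicates 1 and 2 only by a small margin and replicate 5 by the most. Gclm rose by 0.41 ± 0.13 (log2, SE, edgeR adjusted p = 0.0284), and by 0.27 without JHU083 replicate 5, where the call was lost (edgeR adjusted p = 0.0687). The call was also lost without vehicle replicate 1, 3 or 4 (log2 differences 0.38 to 0.41, edgeR adjusted p from 0.0513 to 0.0647), and in both sets of 5 samples, with 0.27 where the ribosomal loci were at 0 and 0.49 in the others (edgeR adjusted p = 0.341 and 0.111). Gclc, the catalytic subunit of the same enzyme, rose from 21.3 ± 1.69 to 27.1 ± 1.94 CPM (SD, n = 5), by 0.35 ± 0.09 on the log2 scale (SE, edgeR adjusted p = 0.00669), with no overlap between the groups.

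Gsr encodes glutathione reductase, which regenerates reduced glutathione with NADPH. Its locus (XLOC_038704, chromosome 8, 33652523 to 33698163, plus strand) measured 45.0, 40.6, 41.0, 38.6 and 38.4 CPM in vehicle replicates 1 to 5 and 34.4, 31.5, 37.9, 37.4 and 38.6 CPM in JHU083 replicates 1 to 5. JHU083 replicates 1 to 4 lay below every vehicle sample. The log2 difference of -0.18 ± 0.08 (SE) did not pass the threshold (edgeR adjusted p = 0.0966, 95% interval -0.36 to -0.006) and did so with library-size scaling (-0.26, edgeR adjusted p = 0.0173). On the log2(FPKM + 1) scale it was -0.03 (limma adjusted p = 0.850), with median FPKM of 20.2 in vehicle and 20.5 in JHU083. Of 21 further glutathione loci tested, 2 were higher (Gclc and Ggact) and 4 lower (Ggct, Gpx8, Glo1 and Glrx5), with a median log2 difference of -0.01. Slc7a11, the cystine importer, had a difference of 0.28 ± 0.18 (log2, SE, edgeR adjusted p = 0.239), and 0.15 to 0.41 with single samples left out. Gpx4, the lipid peroxidase, had a difference of -0.02 ± 0.11 (log2, SE, edgeR adjusted p = 0.904), which turned positive without JHU083 replicate 2 or 5, up to 0.05. Ggct and Ggact, which both act on gamma-glutamyl compounds, went opposite ways, with Ggct falling by 0.83 ± 0.18 (log2, SE, edgeR adjusted p = 0.00233) and Ggact rising by 0.60 ± 0.15 (log2, SE, edgeR adjusted p = 0.00617). The Ggct call was lost on the log2(FPKM + 1) scale (-0.73, limma adjusted p = 0.0515).

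Txnrd1 encodes cytosolic thioredoxin reductase (XLOC_003814, chromosome 10, 82833951 to 82897712, plus strand). It measured 110, 120, 126, 104 and 107 CPM in vehicle replicates 1 to 5 and 128, 90.4, 105, 127 and 126 CPM in JHU083 replicates 1 to 5. The groups overlapped, and the log2 difference was 0.02 ± 0.10 (SE, edgeR adjusted p = 0.882, 95% interval -0.19 to 0.24), with a sign that turned under library-size scaling (-0.06) and without vehicle replicate 4 or 5 or JHU083 replicate 1, 4 or 5, down to -0.02. Srxn1, which encodes the sulfiredoxin that repairs over-oxidised peroxiredoxins (XLOC_019901, chromosome 2, 152105516 to 152111376, plus strand), measured 42.5, 51.4, 47.0, 42.1 and 38.1 CPM in vehicle replicates 1 to 5. In JHU083 replicates 1 to 5 it measured 59.2, 35.3, 57.5, 55.2 and 63.0 CPM. JHU083 replicates 1, 3, 4 and 5 were above every vehicle sample and replicate 2 was below every one. The Srxn1 difference was 0.29 ± 0.14 (log2, SE, edgeR adjusted p = 0.108) and was 0.41 without JHU083 replicate 2, where it passed (edgeR adjusted p = 0.00537). It was 0.17 on the log2(FPKM + 1) scale (limma adjusted p = 0.556), 0.41 in the samples with the ribosomal loci at 0 and 0.18 in the others (edgeR adjusted p = 0.123 and 0.541).

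Prdx1 encodes a cytosolic peroxiredoxin that reduces hydrogen peroxide (XLOC_025670, chromosome 4, 116685544 to 116700822, plus strand). It measured 405, 349, 319, 372 and 403 CPM in vehicle replicates 1 to 5 and 363, 258, 517, 376 and 388 CPM in JHU083 replicates 1 to 5. JHU083 replicate 2 was the lowest and replicate 3 the highest of all samples. The log2 difference was 0.04 ± 0.14 (SE, edgeR adjusted p = 0.835, 95% interval -0.26 to 0.34), and 8.99% of its 50-base transcript stretches recur in 3 other genes. The sign turned with library-size scaling (-0.04) and without vehicle replicate 3 or JHU083 replicate 3, down to -0.09. Of the 6 peroxiredoxin genes, a family singled out after its values were seen, 4 fell, where 18.3% of all tested loci were lower: Prdx2 by 0.46 ± 0.10, Prdx4 by 0.42 ± 0.09, Prdx5 by 0.55 ± 0.13 and Prdx6 by 0.31 ± 0.09 (log2, SE), with edgeR adjusted p between 0.00210 and 0.0136. The Prdx6 call was lost on the log2(FPKM + 1) scale (-0.23, limma adjusted p = 0.0758). In the samples with the ribosomal loci at 0 all 4 calls were lost, with Prdx2 at -0.29, Prdx4 at -0.25, Prdx5 at -0.34 and Prdx6 at -0.24, and Prdx3 was 0.06. That set holds only 2 JHU083 samples, replicates 1 and 3. Replicate 3 lay inside the vehicle range for Prdx2, Prdx5 and Prdx6, and its part in the loss was not tested. Prdx3 had a difference of -0.14 ± 0.11 (log2, SE, edgeR adjusted p = 0.345) and passed without JHU083 replicate 3 (-0.26, edgeR adjusted p = 0.0125).

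Among 22 tested loci for thioredoxins, other peroxiredoxins, superoxide dismutases and catalase, 3 were higher (Cat, Oxr1 and Msrb2) and 7 lower (Txn1, Txn2, Sesn3 and the 4 peroxiredoxins), beside 18.4% and 18.3% of all tested loci. Txn1, cytosolic thioredoxin, fell from 250 ± 24.45 to 179 ± 32.2 CPM (SD, n = 5), by 0.48 ± 0.11 on the log2 scale (SE, edgeR adjusted p = 0.00486). Cat, catalase, rose from 68.9 ± 3.51 to 89.1 ± 2.78 CPM (SD, n = 5), by 0.37 ± 0.07 (log2, SE, edgeR adjusted p = 0.000692), and Oxr1 rose by 0.50 ± 0.11 (log2, SE, edgeR adjusted p = 0.00358). The groups did not overlap for Cat or Oxr1.

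Among 12 tested loci of the NADPH supply list, 6 were lower and 2 higher (Idh1, Nnt), beside 18.3% and 18.4% of all tested loci. NADPH is the electron donor of Gsr and Txnrd1, and the median log2 difference of the list was -0.25. The list follows whole routes, so Taldo1, Tkt and Pgls are in it although their enzymes do not themselves form NADPH. Of the 5 pentose phosphate enzymes, also singled out after their values were seen, 4 fell and make up 4 of the 6. Pgd fell by 0.39 ± 0.10, Taldo1 by 0.33 ± 0.13, and the loci of Tkt and Pgls, which list further symbols, by 0.53 ± 0.11 and 0.41 ± 0.14 (log2, SE, edgeR adjusted p between 0.00267 and 0.0491). Omitting single samples removed the calls of Taldo1 and of the Pgls locus in 7 of 10 cases each, those without vehicle replicate 1, 4 or 5 or JHU083 replicate 1, 2, 4 or 5, where differences were -0.35 to -0.26 for Taldo1 and -0.40 to -0.34 for Pgls (edgeR adjusted p from 0.0587 to 0.1235). On the log2(FPKM + 1) scale the Taldo1 call was lost (-0.36, limma adjusted p = 0.0652). In the samples with the ribosomal loci at 0 all 4 calls were lost, with Pgd at -0.31, the Tkt locus at -0.33, the Pgls locus at -0.25 and Taldo1 at -0.14 (edgeR adjusted p from 0.192 to 0.610). JHU083 replicate 3, inside the vehicle range for all 4, is 1 of the 2 JHU083 samples of that set. Its part in the loss was not tested. G6pdx, the first enzyme of the route, had a difference of -0.17 ± 0.08 (log2, SE, edgeR adjusted p = 0.0968), which passed with library-size scaling (-0.25, edgeR adjusted p = 0.0150). Me1, cytosolic malic enzyme and an NRF2 target, fell from 2.43 ± 0.53 to 0.89 ± 0.30 CPM (SD, n = 5, edgeR adjusted p = 0.00118), a call that was lost on the log2(FPKM + 1) scale (-0.41, limma adjusted p = 0.0705), and Me2 fell by 0.49 ± 0.09 (log2, SE, edgeR adjusted p = 0.000905). Idh1 rose by 0.34 ± 0.06 (log2, SE, edgeR adjusted p = 0.000823). The 4T1 epithelial markers fell in the same samples, as given above, although the CD45+ CD11b+ F4/80+ gate should remove such cells, and their part in the low Me1 counts was not tested.

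Hmox1 encodes heme oxygenase 1, which splits heme into biliverdin, iron and carbon monoxide. Its locus (XLOC_039058, chromosome 8, 75093621 to 75100589, plus strand) measured 487, 454, 469, 528 and 535 CPM in vehicle replicates 1 to 5 and 568, 452, 648, 682 and 712 CPM in JHU083 replicates 1 to 5. JHU083 replicates 1, 3, 4 and 5 exceeded all vehicle samples, and replicate 2 lay just below the lowest of them. Hmox1 rose by 0.31 ± 0.11 on the log2 scale (SE, edgeR adjusted p = 0.0379). With limma-voom it missed the threshold (0.29, limma adjusted p = 0.0539), as it did with library-size scaling (0.23, edgeR adjusted p = 0.0867) and on the log2(FPKM + 1) scale (0.30, limma adjusted p = 0.0674). It also did without vehicle replicate 1, 2, 3 or 4 or JHU083 replicate 4 or 5, at log2 differences of 0.25 to 0.33 (edgeR adjusted p from 0.0533 to 0.1003), and in both sets of 5 samples, with 0.27 where the ribosomal loci were at 0 and 0.36 in the others (edgeR adjusted p = 0.215 and 0.169). Of 8 further heme and iron genes, 3 were higher, with Slc40a1, the iron exporter, rising from 19.5 ± 1.71 to 43.3 ± 9.68 CPM (SD, n = 5, edgeR adjusted p = 3.03e-05). The heme transporter Slc48a1 rose by 0.42 ± 0.08 (log2, SE, edgeR adjusted p = 0.00135). Fech, whose enzyme inserts iron into protoporphyrin IX to form heme, rose by 0.35 ± 0.08 (log2, SE, edgeR adjusted p = 0.00425).

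The oxidant source was examined alongside. Cybb, the catalytic subunit of the phagocyte NADPH oxidase, rose from 791 ± 24.3 to 1007 ± 102 CPM (SD, n = 5), by 0.35 ± 0.08 on the log2 scale (SE, edgeR adjusted p = 0.00485), without overlap. The other 6 oxidase loci tested did not pass the threshold.

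Per length, Hmox1 and Prdx1 were the most abundant of the 10 genes in vehicle samples, with median FPKM of 334 (312 to 368) and 329 (294 to 376) and overlapping ranges. Nfe2l2 followed at 91.7 FPKM (88.7 to 94.4), separate from both neighbours in the order. Txnrd1, Srxn1 and Gsr had medians of 31.5, 22.1 and 20.2 FPKM, and the ranges of neighbours overlapped. Gclm, Gstm1 and Ephx1 had 12.3, 10.02 and 8.80 FPKM, again with overlapping neighbours, and Nqo1 was last at 0.36 FPKM (0.28 to 0.84). In JHU083 samples Ephx1 moved from the ninth to the fifth place, between Txnrd1 (36.3 FPKM) and Srxn1 (25.6 FPKM), with ranges that overlapped both.

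Within the JHU083 group, replicate 2 was the lowest of its group for 7 of the 10 genes, and replicate 5 was the highest for 5. A different sample stood out among the wider pathway genes. Of 14 loci called lower with 4 of 5 JHU083 samples under every vehicle sample, the remaining sample was replicate 3 for 12, among them Keap1, Txn1, Prdx2, Prdx5, Prdx6, Pgd, Taldo1 and the Tkt locus. Without replicate 3, 34 of the pathway loci were lower and 29 higher, against 23 and 27 with all samples. Counts over all loci also grew without it, from 2293 to 2929 lower and from 2296 to 2895 higher.

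The loci most like Ephx1 over the 10 samples, among 9470 that list 1 symbol and have an average of at least 2 log2 CPM, were Camk2n1, Mras, Cd37, Sult1a1 and Cd302. Their Pearson r with Ephx1 was 0.99, 0.99, 0.99, 0.98 and 0.98. The groups lay apart for each of these loci, with log2 differences of 2.74, 0.96, 0.95, 2.87 and 0.72. This follows from how they were picked, because the groups also lay apart for Ephx1. After the group means were subtracted, the highest r belonged to Slc25a14 (0.94), Mrps35 (0.93), Cracr2b (0.93), Ogfod2 (0.92) and Ccdc189 (0.91), none of which was in the first list. These r were the highest of 9470 loci over only 10 samples and were not tested.

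**Figure D4:**
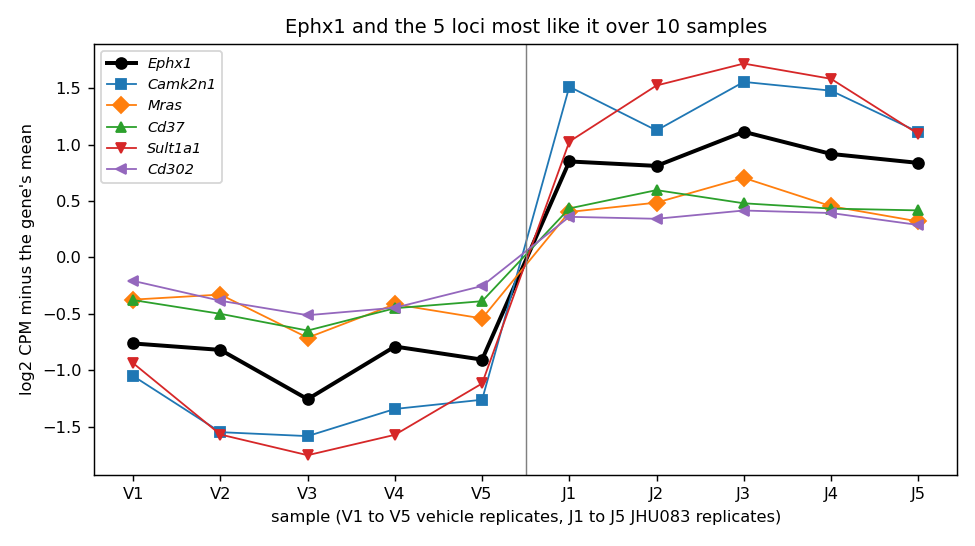
Log2 CPM minus the mean of each gene in the 10 samples, for Ephx1 (black) and the 5 loci with the highest Pearson r to it, with vehicle samples on the left and JHU083 samples on the right; lines join the points of 1 gene and imply no order. All 6 lie below their mean in every vehicle sample and above it in every JHU083 sample, which follows from picking loci by r with Ephx1.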

How the data were processed

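RNA from 5 vehicle and 5 JHU083 samples was sequenced. The submitters' processing notes name bcl2fastq 2.17.1.14, FastQC 0.11.2, TopHat2 2.1.1 and the build GRCm38; the counting program and annotation are not given in the sources used here. The authors deposited, per the file headers, raw counts and normalized values per locus. The values the authors deposited as raw counts are not whole, so they were named estimated counts; how they were scaled before deposit is not stated, and a factor per sample is inferred from the values. In each sample 99.79% or more of the positive values lay within 0.05 of a whole multiple of a step of 0.888 to 1.17, so the values were divided by the step and rounded. The second column behaves as FPKM, which the authors deposited as normalized values, and served only for levels per length and as an alternative. Of 46957 loci, 1060 list several symbols and 1 has none.

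Loci were filtered with filterByExpr, scaled by TMM and compared by quasi-likelihood in edgeR 4.0.16 (R 4.3.3), with Benjamini-Hochberg adjustment over all 12501 tested loci at 0.05. CPM uses TMM-scaled library sizes, log2 CPM a prior count of 2, and SE is the log2 difference divided by the square root of F. On counts simulated for these 12501 loci with 200 changed by 1 on the log2 scale, 80.0% of the changed loci were recovered and 4.76% of calls were false. In the data 36.7% of tested loci were called and many differences given here were smaller than 1. The simulated rates therefore do not carry over to these calls. Alternatives were DESeq2 1.42.0, limma 3.58.1, other scalings and filters, sample subsets and the replicate number as a block. Positions and transcripts are from GENCODE M21 (GRCm38), matched by symbol, and promoters from RefSeq (GRCm38.p6). Of the wider pathway list, 164 of 168 genes were found in the tables. Genes named with values are the 10 members, a fixed panel and, per role, up to 3 increases and 3 decreases past the threshold, without overlap of the groups and with mean log2 CPM from 2 upwards. Maff, Sqstm1, Abcb1a, Gstp1, Gstt1, the peroxiredoxin and pentose phosphate families and genes listed without values were chosen after their values were seen. The members and lists were chosen with earlier results of these data known.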

Additional observations from a re-analysis of the deposited data

Results flagged for a closer look

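The values of the 10 genes were examined in 20 groups of 5 samples on the log2 scale for a sample far from the others, which chance alone gives in about 1 in 20 groups. In vehicle replicate 2 the Nqo1 level was 1.22 CPM against 0.41 to 0.55 CPM in the other vehicle samples, a gap of 0.79 of the range of the group. In JHU083 replicate 2 the Srxn1 level was 35.3 CPM against 55.2 to 63.0 CPM in the other JHU083 samples, a gap of 0.77 of the range.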

How the results depend on the processing

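Among single-gene differences under alternatives, 1120 stayed on the same side of the threshold with the same sign, 122 lost the call, 5 gained it and 23 turned sign. Counts of members leave out Ephx1, and with all samples 4 were higher and 0 lower. Scaling to library size only gave 2 members higher and 1 lower, and turned Txnrd1 (-0.060), Prdx1 (-0.043) and Mafg (-0.067). In the 5 samples with Rn18s-rs5 at 0, 532 of all loci were higher and 586 lower, with 9 pathway loci higher and 2 pathway loci lower; 0 of 8 members were higher by edgeR, 3 at an unadjusted p under 0.05. Gpx4 was 0.13 and Prdx3 0.057. In the other 5 samples, 1274 of all loci were higher and 1545 lower, and 1 member and 13 pathway loci were higher. There Txnrd1 was -0.056 and Prdx1 -0.096. Both sets hold fewer samples. With that status as a covariate Gpx4 was 0.011. On log2(FPKM + 1) without a filter, 1416 loci were higher and 1435 lower, with 2 members higher and 11 pathway loci lower; the cause was not tested. Mafg was -0.0165 on log2(FPKM + 1), with or without the filter, and -0.0168 on log2(FPKM + 0.1).

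Leaving out 1 sample at a time gave 1823 to 2895 loci higher and 1899 to 2929 lower, 2 to 5 members higher and 0 lower, and 24 to 29 pathway loci higher and 16 to 34 lower. The highest counts of all loci came without JHU083 replicate 3. Ranges of log2 differences were -0.018 to 0.099 for Txnrd1, -0.091 to 0.16 for Prdx1, -0.015 to 0.051 for Mafg and -0.14 to 0.046 for Gpx4.

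The labels number samples 1 to 5 in both groups, and same-numbered samples did not deviate together (mean correlation -0.19). Such correlations cannot exclude a pairing in handling, and the main fit used none. A replicate block in the fit left 1612 of all loci higher and 1757 lower, with 3 members and 23 pathway loci higher and 16 pathway loci lower; it removed the calls of Gclm and of 11 pathway loci, Akr1c13, Cbr2, Maff and Nnt among the higher and Pgls, Glo1, Glrx5, Keap1, Prdx6, Taldo1 and Txn2 among the lower. Depth limits Nqo1, at 3 to 16 fragments a sample.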
